A study of Mus musculus with 7 samples.

Results

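The regions described here are stretches of chromatin in resting CD8+ T cells (CD8-TC) that carried the histone mark H3K4me1. They lay between genes at a middle distance from promoters and shared no base with a called Runx3-bound region. Of the 76705 H3K4me1-marked regions called, 12218 (15.9%) were of this kind. A region was taken when it shared no base with any of the 4934 Runx3-bound regions and was not among the widest 1% of the H3K4me1 list (767 regions). Its midpoint also had to lie outside every protein-coding gene body and at least 5 kb but under 50 kb from the nearest transcription start site (TSS) of the GENCODE annotation of build mm9. They are called Runx3-free intergenic regions below, which means only that no Runx3-bound region was called on them. For some regions of resting CD8-TC the paper reports apparent Runx3 binding that the peak caller MACS left unscored because of higher background. The regions were thus chosen by the absence of a called Runx3-bound region, by width and by position. These are given as description and carry no test.

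The data came from chromatin immunoprecipitation and sequencing (ChIP-seq) in CD8-TC from the spleens of ICR mice. Per the labels, cells of 18 mice were pooled and selected with anti-CD8 magnetic beads to a purity above 95%, without activation and without any engineered allele. The age and sex of the mice are not given in the sources used here. The 7 libraries were 3 for Runx3 (from 2 biological repeats), 2 for H3K4me1, and 2 with non-immune serum (NIS) as the control. Each antibody had 1 list of regions joined over its repeats, called against the joined NIS libraries. The lists give positions only, without read counts, heights or p-values. The depth behind a region and the spread between repeats are therefore unknown here, and every interval below is a 95% interval that covers counting error over regions alone.

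H3K4me1 is histone H3 with a single methyl group on lysine 4. It is laid down around enhancers, the DNA elements that act on promoters from a distance, and it marks active enhancers as well as primed ones that are not in use. Enhancers are bound by transcription factors that recognise short motifs. Runx3, a factor of the RUNX family, represses Cd4 and sustains Cd8 expression in cytotoxic T cells, and ETS family factors such as Ets1 are abundant in lymphocytes. Both families bind many of the same lymphocyte enhancers.

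Sequences of 7 Runx3-free intergenic regions are shown first, since the motif results below turn on what such windows hold. Each is the 200 bp around the midpoint of the region, on the plus strand of mm9. Capitals mark matches on either strand to the RUNX core (TGTGGT or TGTGGC or TGCGGT or TGCGGC) and to the ETS core (AGGAAA or AGGAAG or CGGAAA or CGGAAG). One region was taken for the gene with most regions in each of 6 gene lists described below, namely the widest whose window held both motifs or, failing that, either. The widest Runx3-free intergenic region of all was added. The way of choosing was set after the windows had been seen.
Cd8a, chr6:71309638-71309837: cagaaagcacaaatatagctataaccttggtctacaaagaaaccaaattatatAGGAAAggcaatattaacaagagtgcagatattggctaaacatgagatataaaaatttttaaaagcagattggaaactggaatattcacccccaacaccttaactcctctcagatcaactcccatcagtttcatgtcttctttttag
Btg1, chr10:96033010-96033209: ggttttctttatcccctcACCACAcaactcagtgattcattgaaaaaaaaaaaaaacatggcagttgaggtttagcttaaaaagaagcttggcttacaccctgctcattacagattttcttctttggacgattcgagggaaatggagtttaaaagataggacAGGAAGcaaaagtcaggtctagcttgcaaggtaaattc
Prdm1, chr10:44356261-44356460: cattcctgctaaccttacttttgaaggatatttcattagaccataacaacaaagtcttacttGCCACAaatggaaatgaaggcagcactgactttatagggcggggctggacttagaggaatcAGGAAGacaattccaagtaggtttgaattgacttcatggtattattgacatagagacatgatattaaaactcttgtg
Cxcr4, chr1:130687822-130688021: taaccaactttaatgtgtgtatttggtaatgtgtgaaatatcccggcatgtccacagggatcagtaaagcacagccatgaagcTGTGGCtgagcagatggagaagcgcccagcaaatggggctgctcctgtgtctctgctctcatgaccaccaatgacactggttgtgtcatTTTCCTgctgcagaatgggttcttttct
Ebf1, chr11:44903115-44903314: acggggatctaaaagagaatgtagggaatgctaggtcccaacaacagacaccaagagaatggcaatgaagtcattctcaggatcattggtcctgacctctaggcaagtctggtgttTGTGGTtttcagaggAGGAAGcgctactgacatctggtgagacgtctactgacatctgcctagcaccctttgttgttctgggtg
Cebpb, chr2:167579705-167579904: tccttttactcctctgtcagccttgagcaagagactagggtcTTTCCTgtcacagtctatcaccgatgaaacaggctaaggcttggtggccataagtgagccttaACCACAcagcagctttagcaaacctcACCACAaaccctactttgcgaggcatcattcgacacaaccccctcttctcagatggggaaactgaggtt
Bcl9l, chr9:44295445-44295644: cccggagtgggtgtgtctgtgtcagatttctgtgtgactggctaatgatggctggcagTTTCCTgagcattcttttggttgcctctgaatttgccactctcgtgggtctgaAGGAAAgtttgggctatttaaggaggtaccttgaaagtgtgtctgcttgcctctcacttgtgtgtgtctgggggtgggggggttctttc

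The Cd8a window came from a region of 2574 bp centred 13.7 kb upstream of the gene of the CD8 alpha chain, and the closest Runx3-bound region was 312 bp away. It held 1 ETS and 0 RUNX matches. The Ebf1 window, beside the gene of a B cell transcription factor, came from a region of 1563 bp that lay 471.5 kb past the TSS in the direction of the gene, with the closest Runx3-bound region 762.1 kb away. It held 1 match of each kind, which the way of choosing windows favoured. The Cebpb window, next to a gene of a myeloid factor, held 2 RUNX matches and 1 ETS match, and its closest Runx3-bound region was 94.8 kb away. The Btg1, Prdm1 and Cxcr4 windows held 1 of each, and the Bcl9l window held 2 ETS matches alone.

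The Runx3-free intergenic regions were narrow. Their median width was 891 bp (interval 877 to 907), the lower and upper quartiles were 601 and 1486 bp, and the whole range was 239 to 7318 bp. Together they covered 14.9 Mb. H3K4me1-marked regions at the same distances that did share a base with Runx3, of which there were 843, had a median of 2169 bp (2051 to 2303). A wide region has more bases that a Runx3-bound region can share, so the choice itself favours narrow regions. Remote intergenic regions without Runx3, 50 kb or more from a TSS, had a median of 871 bp (848 to 890), and intragenic ones had 904 bp (891 to 914), so the widths in the 3 classes without Runx3 lay close together.

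Of 13061 H3K4me1-marked regions at these distances and below the width limit, 843 shared a base with Runx3 (6.45%, 6.05 to 6.89). The share was 5.97% at 5 to 10 kb from the TSS, 7.43% at 30 to 40 kb and 5.56% at 40 to 50 kb. Some regions missed the limits of the rule narrowly. The closest Runx3-bound region to a Runx3-free region was 2 bp away, on chromosome 19, and the smallest stretch shared by a Runx3-bound one was also 2 bp, although 16 of 843 shared under 50 bp and the median shared stretch was 756 bp. The nearest midpoint to a TSS was at 5001 bp, against 4997 bp for the closest region left out, and the farthest at 49991 bp against 50019 bp. The widest taken was chr9:44291886-44299203 upstream of Bcl9l, a Wnt pathway coactivator, at 7318 bp, and the narrowest left out for its width measured 7370 bp.

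The 10 widest Runx3-free intergenic regions measured 7004 to 7318 bp. They were assigned, by the nearest protein-coding TSS, to Bcl9l, AB041803, Socs1, Socs3, Chd2, Cdkn2aipnl, Bach2, Nedd9, Smndc1 and Fam43a. Socs1 and Socs3 (7270 and 7267 bp) encode feedback inhibitors of cytokine signalling. Bach2 (7123 bp) encodes a repressor that restrains effector differentiation.

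Runx3-free intergenic regions were denser close to the TSS than far from it. Density is their number per Mb of eligible space, meaning all bases outside protein-coding gene bodies and 5 to 50 kb from a TSS (663.8 Mb). It was 18.4 per Mb overall (18.1 to 18.7), or 1 region per 54.3 kb, and the regions covered 2.24% of that space. From 5 to 10 kb there were 3261 regions at 23.3 per Mb (22.5 to 24.1), and from 40 to 50 kb 1087 regions at 13.1 per Mb (12.3 to 13.9). The 3 bins between lay in order at 20, 17.7 and 14.0 per Mb. The intervals of the bins at 30 to 40 and 40 to 50 kb overlapped (13.3 to 14.7 and 12.3 to 13.9). The density near the TSS was thus 1.78 times that at the far limit (1.67 to 1.91), and 1.48 times when protein-coding TSSs alone were counted. The median width changed little across the bins, from 872 to 902 bp.

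**Figure D1:**
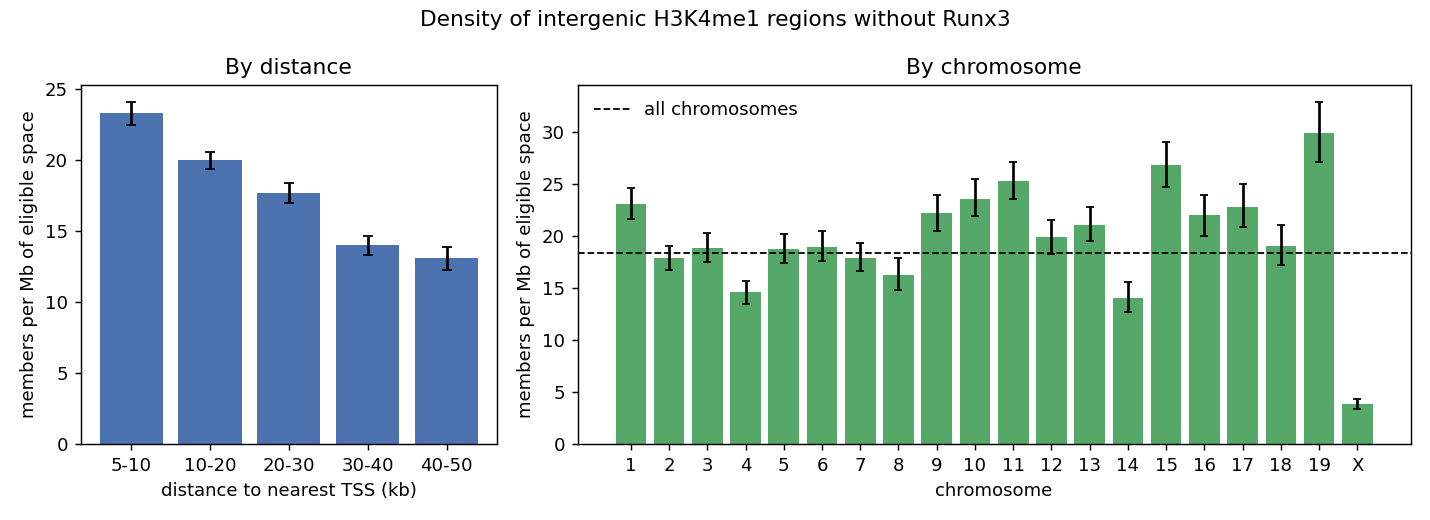
Runx3-free intergenic regions per Mb of eligible space by distance from the nearest TSS (kb) and by chromosome, with 95% Poisson intervals. Density is 23.3 per Mb at 5 to 10 kb and 13.1 at 40 to 50 kb, and chromosome X stands far below the autosomes at 3.85.

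Chromosome X carried few. Its 67.5 Mb of eligible space held 260 Runx3-free intergenic regions, or 3.85 per Mb (3.40 to 4.35), against 20.1 per Mb (19.7 to 20.4) on the autosomes. The autosomes ranged from 14.1 per Mb (12.7 to 15.6) on chromosome 14 to 29.9 on chromosome 19. On X, 56 of the 260 (21.5%) were nearest to just 2 genes, Tmsb4x and Olfr1324.

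More regions lay upstream of genes than past their ends, as did more of the eligible space (414.1 of 663.8 Mb). Relative to the protein-coding gene with the nearest TSS, 8119 regions (66.5%, 65.6 to 67.3) lay upstream, at 19.6 per Mb, and 4099 lay past the gene's end, at 16.4 per Mb. The share depends on where the gene is measured from. By the nearest gene edge in place of the TSS, 55% were upstream.

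Runx3-free intergenic regions lay in company. The median gap to the next H3K4me1-marked region of any kind was 1228 bp, with 47.3% having a neighbour within 1 kb and 71.3% within 5 kb. The other classes did so too. A neighbour within 1 kb was found for 43.4% of remote and 55.3% of intragenic regions without Runx3, and for 61.2% of those with Runx3 at the same distances. From a Runx3-free intergenic region the closest Runx3-bound region was farther off, at a median gap of 70530 bp. A Runx3-bound region lay within 1 kb of 178 (1.46%), within 10 kb of 1732 (14.2%, 13.6 to 14.8) and within 50 kb of 5172 (42.3%). The share within 10 kb was 11.3% for remote and 12.8% for intragenic regions without Runx3.

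When Runx3-free intergenic regions less than 5 kb apart were joined, they formed 7206 runs, of which 4584 were single regions and 276 held 5 or more. Those 276 runs contained 1785 of the regions. The longest run, chr7:80713742-80764699, had 18 regions that covered 64.6% of it, upstream of Chd2, a chromatin remodeller, and 0 Runx3-bound regions lay inside it. A run of 17 at chr12:114459490-114496143, covered to 81.9%, lay beside a constant gene of the immunoglobulin heavy chain locus and Tmem121, again with 0. Further runs of 14 lay at chr1:156881554-156923518 next to Ier5, an immediate early gene (74.7% covered), and at chr19:11432543-11473379 next to the Ms4a4c and Ms4a7 genes of the Ms4a family (57.6%), which held 1 Runx3-bound region. A run of 16 at chrX:47944041-47974216 (50.4%) lay at the long non-coding RNA gene 6720401G13Rik, and a run of 14 at chr13:34754091-34804480 (50.2%) beside Fam50b, both with 0. The 6 runs with most regions held 1 Runx3-bound region among them. The regions, which covered 50.2 to 81.9% of these runs, could share no base with Runx3 by the rule. The count is therefore description and carries no test.

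Each region was assigned to the protein-coding gene with the nearest TSS, which is a rule of distance and shows no action on that gene. Of 22350 protein-coding genes 4531 received at least 1 (20.3%), or 26.7% of the 16972 genes that had any eligible space. The median was 2 regions per such gene, with 1992 genes having 1 and 703 having 5 or more. Those 703 genes held 5449 regions (44.6%). For 2200 regions (18.0%) the nearest protein-coding TSS was 50 kb away or more, since the rule counted the TSSs of non-coding genes too.

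The 10 genes with most regions were of several kinds. Tmsb4x, encoding the actin-binding thymosin beta 4, had 32 regions, 29 of them past its end, covering 56.3 kb. Btg1, an antiproliferative gene of quiescent lymphocytes, had 25 (42.3 kb), on both sides. Gm10293, a predicted gene, had 25 and Olfr1324, an olfactory receptor gene, had 24, and the latter lay 135.2 to 194.1 kb from its regions. Names of this kind show the limit of assignment by distance. The other 6 were Ets2 (23), an ETS family factor, Zfp217 (22), a zinc finger protein, and, with 21 each, Chd2, Map3k1, a kinase upstream of Jnk, Klf3, a Kruppel-like repressor, and Iglc2, an immunoglobulin lambda constant gene. Cxcr4, described below, also had 21 and came after these by the total width of its regions.

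Runx3 was unevenly present around these genes. Btg1 had 5 Runx3-bound H3K4me1 regions at the same distances, and 12 of its 25 Runx3-free regions had Runx3 within 10 kb. Ets2 had 3 bound regions, with 10 of 23 free ones near Runx3. Chd2, Map3k1, Olfr1324 and Iglc2 had 0 bound regions at these distances. Of the regions near them, 4 of 21 at Chd2 and 5 of 21 at Map3k1 had Runx3 within 10 kb, and none did at Olfr1324 or Iglc2.

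To see which lymphocyte programmes the regions lay beside, 9 lists of 20 genes each were used, all of whose genes were found in the annotation and which share no gene. The share of genes with a region is to be read against 20.3% of all protein-coding genes, and the density against 18.4 per Mb. The lists are counts without a test. Lists of T cell genes and of B cell genes were dense, and those of liver and neuron genes were sparse.

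In the list of T cell receptor (TCR) components and proximal signalling, 12 of 20 genes had 53 regions, at 107.3 per Mb (80.4 to 140.3). Cd8a had 8, all upstream, 5.47 to 21.6 kb away and 415 to 2574 bp wide, and all 8 had Runx3 within 10 kb. Rhoh, a small GTPase required for TCR signalling, had 7, and the adhesion receptor gene Cd2 and the adaptor gene Lat had 6 each. Over the list 37.7% (25.9 to 51.2) of the regions had Runx3 within 10 kb, against 14.2% of all. The genes differed in this, since none of the regions of Cd2 and 1 of those of Lat had Runx3 that near.

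In the list of naive and quiescence genes, 19 of 20 had 138 regions, at 73.4 per Mb (61.7 to 86.8), and 44.9% (36.9 to 53.3) had Runx3 within 10 kb. Besides Btg1, the highest counts were those of Bach2 (19), S1pr1, the receptor for exit from lymph nodes (14), and Il6st, the shared receptor chain gp130 (10). Transcription factor genes of the list outside the naming rule, picked after their values were seen, ran from all 6 regions near Runx3 for Tcf7 and all 6 for Ets1 to 1 of 5 for Gata3 and 0 of 6 for Bcl11b. At Bach2 the 19 regions lay upstream over 7.82 to 112.0 kb, none had Runx3 within 10 kb, and the closest Runx3-bound region was 14.3 kb away.

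**Figure D2:**
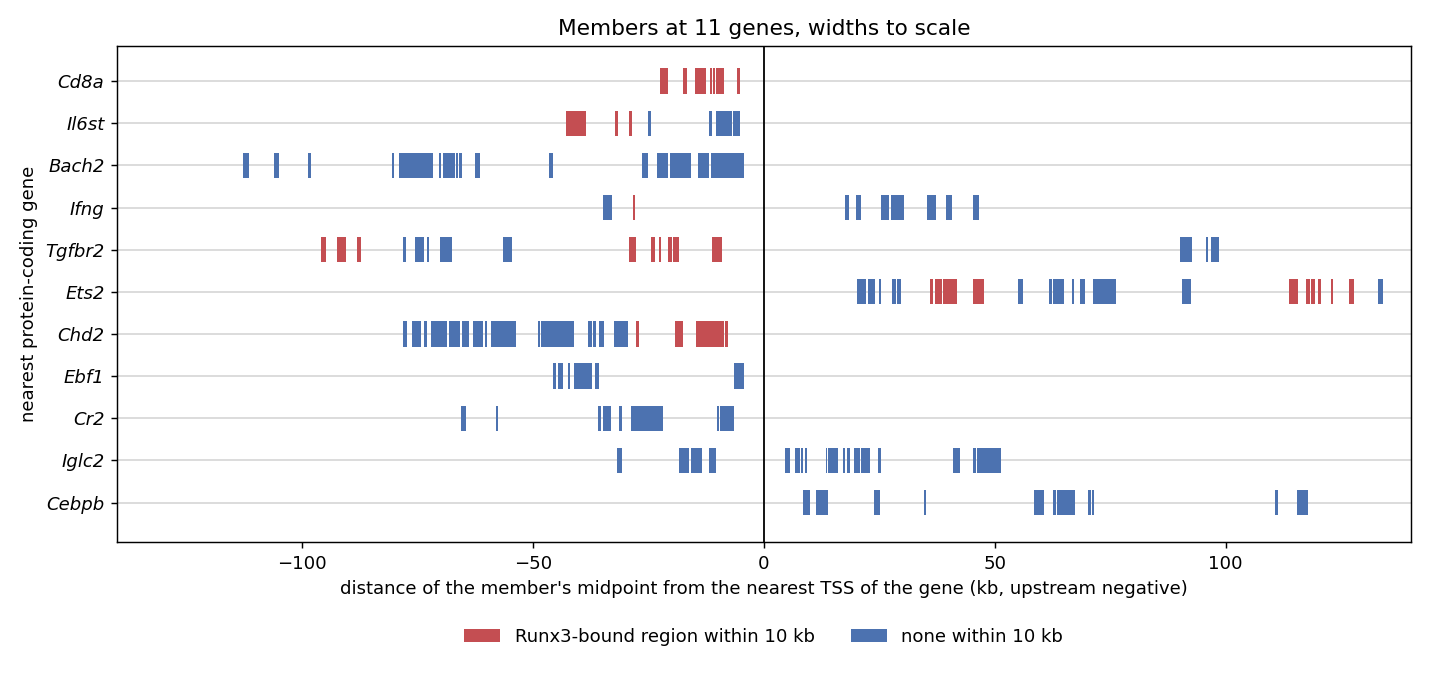
Position (kb from the TSS, negative upstream) of Runx3-free intergenic regions around selected genes, with widths to scale. Colour shows whether a Runx3-bound region lay within 10 kb. Cd8a has Runx3 within 10 kb of all 8 of its Runx3-free regions, Bach2 has none within 10 kb of its 19, and 6 of the 12 regions of Ebf1 fall inside the 140 kb drawn.

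In the list of effector genes, 14 of 20 genes had 70 regions, at 44.0 per Mb (34.3 to 55.6), and 22.9% (14.6 to 34.0) had Runx3 within 10 kb. Prdm1, which encodes the terminal differentiation factor Blimp-1, had 16, of which 1 was near Runx3. Fasl, the death ligand gene, had 12, of which 7 were near. Ifng, the interferon gamma gene, had 9 at 18.0 to 45.9 kb, of which 1 was near, and Zeb2, a repressor of effector cells, had 9, none of them near. The regions of these genes lay at different distances from them, 5.79 to 82.9 kb for Fasl, 23.8 to 245.7 kb for Prdm1 and 25.7 to 1253.8 kb for Zeb2, and 14.2% of all Runx3-free regions had Runx3 within 10 kb.

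In the list of cytokine and chemokine receptors, 12 of 20 genes had 66 regions, at 84.9 per Mb (65.6 to 108.0), and 45.5% (34.0 to 57.4) had Runx3 within 10 kb. Cxcr4, a homing receptor gene, had 21, of which 7 were near Runx3, and Tgfbr2, a chain of the TGF-beta receptor, had 18, of which 10 were near Runx3. Ifngr1 had 7 with 5 near, and Ccr2 had 4 with 3 near. Over the 4 T cell lists together, 57 of 80 genes had 327 Runx3-free regions and 59 Runx3-bound ones, so that 15.3% (12.0 to 19.2) of the marked regions carried Runx3, against 6.45% beside all genes.

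B cell genes, too, had many Runx3-free regions beside them. In the B cell list, 15 of 20 genes had 60 regions at 121.3 per Mb (92.6 to 156.1), the highest density of the 9 lists. None of the regions at these distances carried Runx3, and 0 of 60 allows a share of up to 5.0% by a limit of 3 counts. Only 3 (5.0%, 1.71 to 13.7) had Runx3 within 10 kb, among them 2 beside Pou2af1, a B cell coactivator, at 7.75 and 8.24 kb. Ebf1 had 12 regions, Cr2, the complement receptor CD21, had 11, and Cxcr5, a follicle homing receptor, had 8, with the closest Runx3-bound region 711.6, 187.5 and 79.3 kb away. The mark was thus frequent beside these genes. Beside all genes 6.45% of the marked regions carried Runx3, and 14.2% of the Runx3-free ones had it within 10 kb. The B cell counts are small and were not tested against these shares.

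The myeloid and dendritic list had 8 genes with 32 regions, at 54.0 per Mb (36.9 to 76.2). Cebpb had 12, and Itgam, Fcgr1 and Marco, which encode surface receptors of macrophages, had 5 each. A single region at these distances carried Runx3 (3.03%), and none of the 32 free ones had it within 10 kb (0%, Wilson interval 0 to 10.7). The erythroid list had 3 genes with 6 regions, at 27.6 per Mb (10.1 to 60), 4 of them beside Tfrc, the transferrin receptor gene of dividing cells, and 1 each beside Alas2 and Gfi1b. Liver genes had 4 regions beside 3 genes, 2 of them beside Pck1, a gluconeogenesis gene, at 4.14 per Mb (1.13 to 10.6), and neuron genes had 5, all beside the glutamate receptor gene Gria2, at 4.32 per Mb (1.4 to 10.1). Lists of genes of other organs therefore lay below the density beside all genes, and the myeloid and erythroid lists above it, the latter with an interval that spans it.

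**Figure D3:**
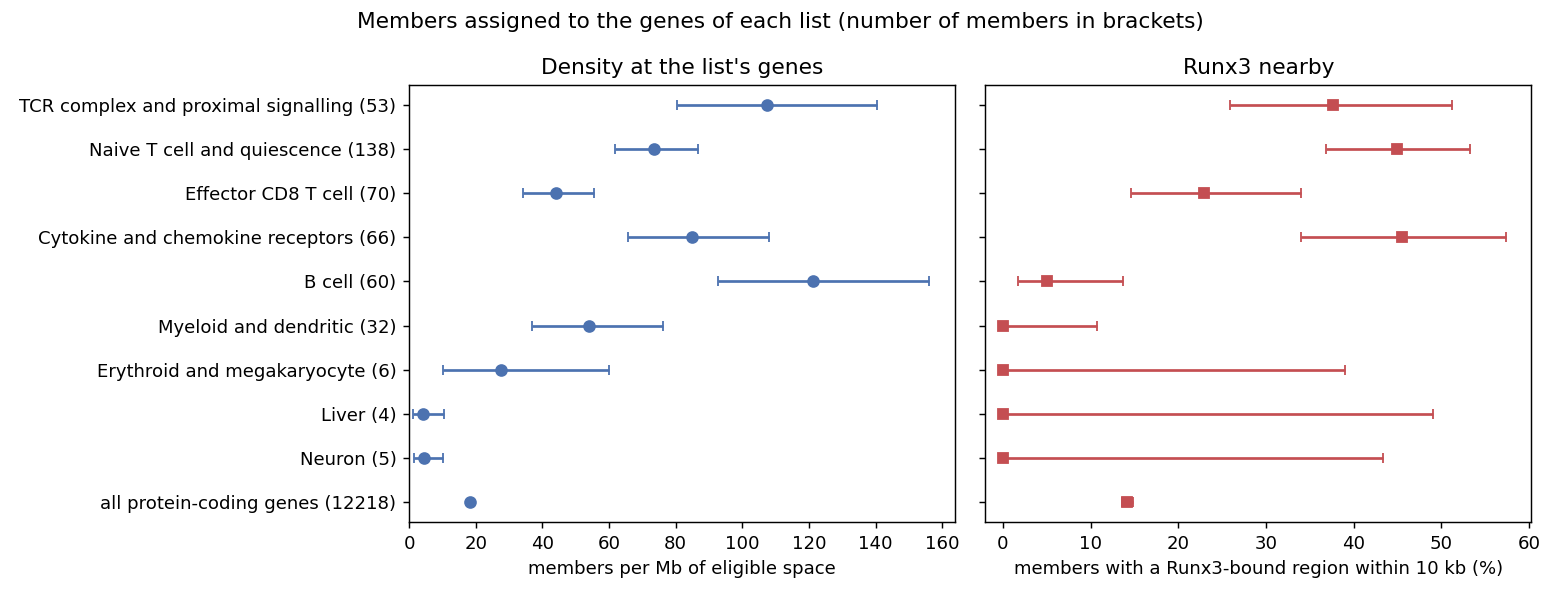
Runx3-free intergenic regions per Mb of eligible space beside each of 9 lists of 20 genes (95% Poisson intervals), and percent of these regions with a Runx3-bound region within 10 kb (95% Wilson intervals). The values beside all genes form a further row. B cell genes reach 121.3 per Mb with 5.0% near Runx3, and naive T cell genes 73.4 per Mb with 44.9%.

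The labelled cell type was checked through marker genes, together with cell types that the selection could have left. H3K4me1 of any kind was found in the gene body or within 5 kb of the TSS for 10 of 10 CD8 T cell markers (51 regions), 6 of 6 B cell markers (82, of which 43 at Ebf1 and 24 at Pax5), 5 of 6 myeloid (26), 4 of 4 dendritic (24), 3 of 4 NK (5) and 2 of 3 erythroid markers (3). Of these markers Lyz2, Ncr1 and Gata1 had 0, while Itgam (13), Sfpi1 (6), Klrb1c (3) and Klf1 (2) carried the mark. Runx3-free intergenic regions numbered 29 beside 6 CD8 T cell markers, 17 beside 5 B cell, 18 beside 3 myeloid, 1 beside 1 dendritic, 13 beside 2 NK and 0 beside erythroid markers. The lists give no height, so the part of other cells in the regions beside B cell and myeloid genes was not tested.

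The sequence of the regions was not used in choosing them and can be tested. The 200 bp around each midpoint were searched on both strands for 20 motifs and compared with 24422 windows of 200 bp centred 5 kb to either side, 20.3% of which shared a base with an H3K4me1-marked region. Tests were two-sided Fisher's exact tests, adjusted by Benjamini-Hochberg over the 20 motifs. Neighbouring regions are not independent, so these p-values are too small. Relative to their flanks, 12 motifs were more frequent in Runx3-free intergenic regions, 1 was less frequent and 7 did not pass.

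A RUNX core was present in 34.6% of the Runx3-free windows (33.7 to 35.4) and in 28.1% of flank windows, an odds ratio of 1.35 (1.29 to 1.42, exact adjusted p = 6.73e-36). The ETS core was present in 53.1% against 43.0%, an odds ratio of 1.5 (1.43 to 1.56, exact adjusted p = 4.48e-72). Both together were found in 18.4% (17.7 to 19.1) against 11.8%, and neither in 30.8% against 40.7%. The RUNX core was thus more frequent than nearby in regions where no Runx3 was called, by a modest margin. GC content was higher in the windows (47.5%) than in the flanks (45.0%), and within 10 bins of GC the odds ratios were 1.24 (1.19 to 1.3) for RUNX and 1.44 for ETS.

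Both motifs were most frequent at the centre of the Runx3-free regions. Over the Runx3-free regions the RUNX core reached 2.25 matches per kb in the central 100 bp bin, and the ETS core to 4.23 per kb, from 3.39 per kb 3 kb away. In the Runx3-bound regions of the same position the highest bin of the RUNX core was 2.99 per kb, 150 bp from the midpoint, and that of the ETS core was 4.08 per kb, 250 bp away. These are densities by position and carry no test.

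**Figure D4:**
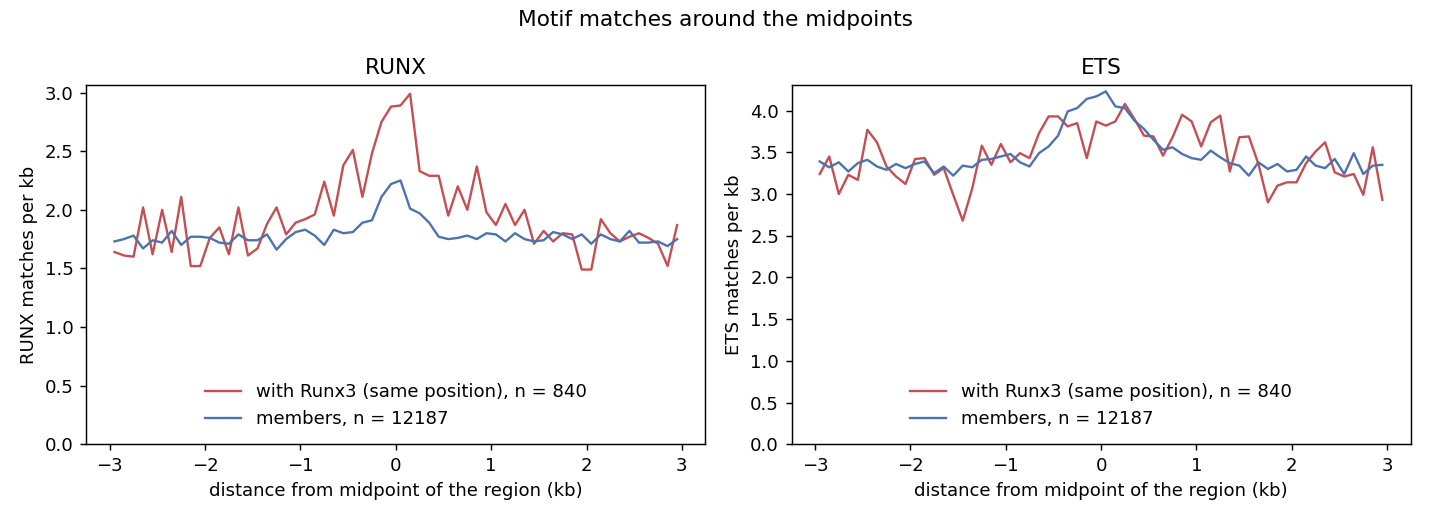
Matches to the RUNX and ETS cores per kb of sequence in 100 bp bins by distance from the midpoint (kb), for 12187 Runx3-free intergenic regions and 840 Runx3-bound regions of the same position. ETS matches peak at 4.23 per kb and RUNX matches at 2.25 per kb in the centre of Runx3-free regions.

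The 4 forms of the RUNX core were not equally raised. TGTGGT, the commonest, was found in 18.1% of windows against 15.3% of flanks (odds ratio 1.22) and TGTGGC in 16.1% against 12.5% (1.34). TGCGGT was rare, at 2.77% against 1.5%, with the highest odds ratio of the 4 at 1.86. TGCGGC was found in 2.09% against 1.45% (1.45).

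Among the other motifs, the E-box CAGCTG, bound by E proteins, was found in 12.5% against 9.01% (odds ratio 1.44, and 1.25 within GC bins). The interferon response element of IRF factors was found in 3.38% against 2.75% (1.24, and 1.45 within GC bins), the NF-kB site in 1.46% against 0.876% (1.67 and 1.48) and the AP-1 site (TGACTCA or TGAGTCA) in 4.52% against 3.64% (1.25 and 1.20). The site of EBF, the factor encoded by Ebf1, was found in 0.778% against 0.455% (1.72 and 1.45). With RUNX and ETS these made 7 motifs that were still higher within GC bins.

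The remaining calls changed sign or were not called within GC bins. KLF/SP (CCNCN followed by CCC, read by Kruppel-like and Sp factors) was found in 18.7% against 16.4%, and its odds ratio of 1.17 by Fisher's exact test flipped to 0.944 within GC bins (Mantel-Haenszel adjusted p = 0.0878). The GC box GGGCGG, which KLF/SP matches can overlap, was found in 4.24% against 2.99%, with an odds ratio of 1.44 by the exact test and of 1.13 within GC bins (Mantel-Haenszel adjusted p = 0.0681). The E-box CACCTG (1.08) likewise flipped to 0.948, while the nuclear receptor single site AGGTCA (1.08, exact adjusted p = 0.0371) and the CRE site (TGACG followed by TCA, 1.87, exact adjusted p = 0.0299) were not called within GC bins, the latter at 1.59 (0.949 to 2.67) from few windows. The GATA motif, searched as AGATAA or as TGATAA, was the 1 motif that was less frequent, at 17.5% against 19% (0.907 by the exact test), and it flipped to 1.07 within GC bins (Mantel-Haenszel adjusted p = 0.0351). TCF/LEF (CTTTG followed by A or T at both next bases, odds ratio 0.941, exact adjusted p = 0.0592) and CTCF (0.823, exact adjusted p = 0.0557) did not pass, and neither did T-box (GGTGTGA), FOXO (TGTTTAC), NFAT (TGGAAA), STAT (TTC and GAA 3 bases apart) or HNF4 (CAAAG followed by TCC). Within GC bins CTCF passed as lower (0.761) and STAT as higher (1.11), where Fisher's exact test had called neither, and CTCF stood at 0.955 without repeated windows.

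**Figure D5:**
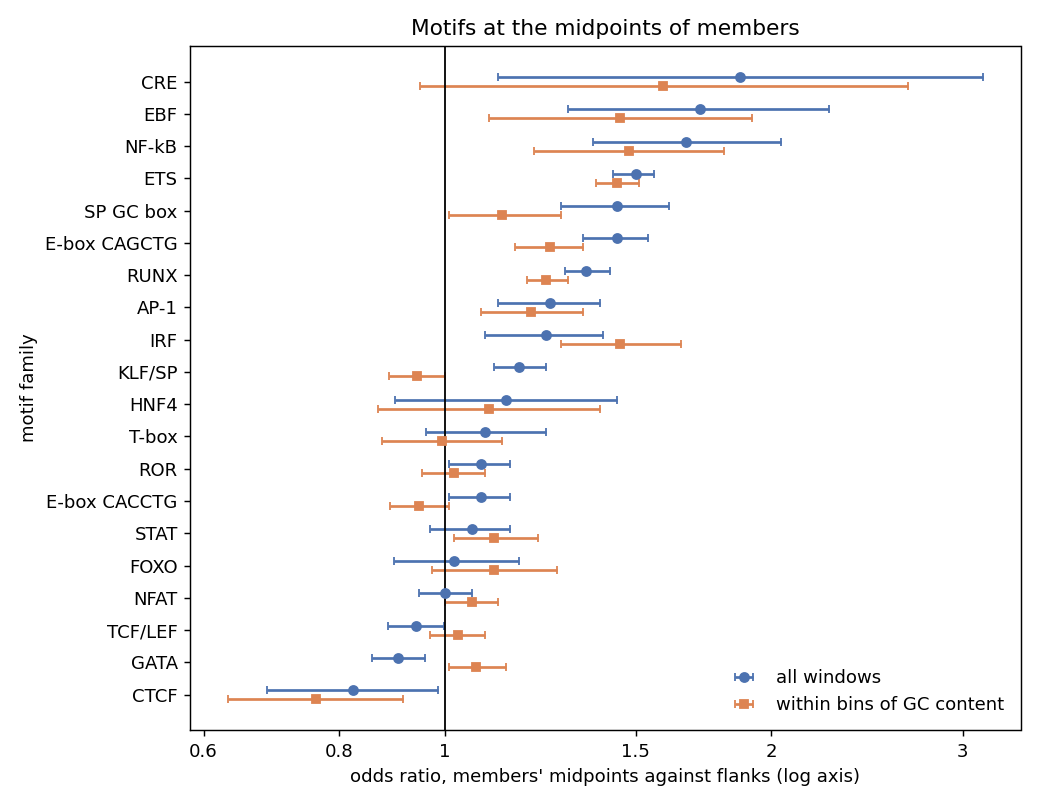
Odds ratio (log axis, 95% intervals) of each of 20 motifs in the 200 bp midpoint windows of Runx3-free intergenic regions against flank windows 5 kb away, over all windows and within bins of GC content. RUNX stands at 1.35 over all windows and 1.24 within GC bins, and ETS at 1.5 and 1.44.

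All 2080 distinct 6-mers, each counted with its reverse complement, were compared in the same way. Of them 809 (38.9%) were more frequent in the Runx3-free windows than in flanks and 406 (19.5%) were less frequent, so a call on a single 6-mer was common. The lowest p-values belonged to AGGAAG, found in 32.8% against 23.8% (odds ratio 1.56, exact adjusted p = 2.86e-70), and ACTTCC, found in 19.1% against 12.6% (1.64), both forms of the ETS core or its reverse complement with its next base. After these came CAGGAA and ACAGGA and GCTTCC and CACTTC and GAGGAA and CACAGC and CCACAG and CTGTGC. Of the first 20, 6 held GGAA on either strand, 2 held GTGG, 2 held AGCTG and 10 held none of these. The 5 depleted 6-mers with the lowest p-values were made of A and T, namely ATATAA (7.19% against 11.9%) and ATTAAA and AATAAA (17.5% against 24%) and AAATAA and AAAAAA. Among the enriched 6-mers ordered by the size of the test statistic, the first RUNX form, TGTGGC, was 17th, and TGCGGT was 30th, TGTGGT 74th and TGCGGC 298th.

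With odds of at least 1.5-fold demanded as well, 65 6-mers remained. Of these, 62 held the dinucleotide CG, as 604 of the 2080 do. The other 3 were the ETS-like AGGAAG with ACTTCC, and ACAGGA. The observed to expected ratio of CpG was 0.244 in Runx3-free windows, 0.215 in flanks and 0.228 in Runx3-bound regions of the same position, so the windows were poor in CpG throughout.

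Runx3-free regions were then set against the 843 Runx3-bound H3K4me1 regions of the same position. Around the midpoint of the H3K4me1 region, the RUNX core was found in 34.6% of Runx3-free and 39.3% of Runx3-bound regions, an odds ratio of 0.817 (0.708 to 0.943, Fisher's exact p = 0.00635). After adjustment over the 20 motifs this did not pass (exact adjusted p = 0.0603), whereas within GC bins the odds ratio of 0.774 did (Mantel-Haenszel adjusted p = 0.0104). The groups were set apart by Runx3, which binds the RUNX core. A difference in that core is thus tied to the choice of regions and is no independent result. ETS was found in 53.1% and 52.3% (1.03, 0.896 to 1.18), an interval that spans 1. KLF/SP (18.7% against 15.1%, 1.3) and IRF (3.38% against 1.78%, 1.93) were both at an exact adjusted p of 0.0603. IRF, which missed by the exact test, passed within GC bins (2.13, Mantel-Haenszel adjusted p = 0.0375), and KLF/SP did not (1.15). Within bins of width all 3 passed, at 0.80 for RUNX, 2.11 for IRF and 1.43 for KLF/SP. Over whole regions, whose widths differ, KLF/SP and IRF turned to 0.387 and 0.443. Against their own flanks, the Runx3-bound regions had an odds ratio of 1.69 (1.42 to 2.01) for RUNX and of 1.48 (1.26 to 1.75) for ETS.

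No 6-mer passed in this comparison, with 0 of 2080 (0%) higher and 0 (0%) lower by Fisher's exact test. At an unadjusted p under 0.05 there were 195 (9.38%), 101 higher and 94 lower. The lowest adjusted p, 0.0610 by Fisher's exact test, was shared by CGTAAA (1.25% against 3.08%) with AACCAC (13.2% against 18.4%, odds ratio 0.674, exact p = 3.76e-05) and with TGTGGT (18.1% against 23.8%, odds ratio 0.708, exact p = 6.40e-05), all lower in Runx3-free regions. The latter pair hold or overlap the RUNX core, and the groups compared were set apart by Runx3.

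The midpoint of an H3K4me1 region need not be where Runx3 sat. With windows moved to the midpoint of the Runx3-bound region itself (771 windows), a RUNX core was found in 75.6% of them, an ETS core in 72.1% and TCF/LEF in 22.3%. These windows were placed by Runx3 itself, which the choice of regions had used, so they are given as a description with no test.

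Motif shares were also taken by the distance to the closest Runx3-bound region. In the 178 Runx3-free regions within 1 kb of a Runx3-bound region, RUNX was found in 24.7% (19 to 31.5) against 28.9% of their flanks (odds ratio 0.807, 0.535 to 1.22), and ETS in 44.9% (0.914). In the 1554 regions at 1 to 10 kb RUNX was found in 32.8% (1.26), in the 3440 at 10 to 50 kb in 34.8% (1.4) and in the 7046 at 50 kb or more in 35.1% (1.37). The odds ratio for ETS in these 3 groups was 1.3, 1.49 and 1.57. The order of the groups was not tested. By width, RUNX was found in 33.6 to 35.4% and ETS in 50.7 to 54.5% across groups of equal size.

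Compared with remote intergenic regions without Runx3, the regions at 5 to 50 kb held more KLF/SP matches (18.7% against 15.5%, odds ratio 1.25, exact adjusted p = 4.90e-05, and 1.07 within GC bins) and more GC boxes (1.37, exact adjusted p = 0.00636), and fewer TCF/LEF matches (15.7% against 18.3%, 0.836, exact adjusted p = 0.00130). Compared with intragenic ones, they again held more KLF/SP matches (1.31, exact adjusted p = 4.15e-18) and GC boxes (4.24% against 2.77%, 1.55, exact adjusted p = 6.54e-12). NF-kB (1.58), CTCF (1.41) and ETS (1.08) were also higher than in intragenic regions. TCF/LEF (0.928) and the GATA motif (0.930) were lower, but within GC bins they stood at 0.981 and 1.02, with intervals that span 1. KLF/SP and GC boxes, motifs common in promoters, were thus higher than in both other Runx3-free classes, but neither difference from remote regions passed within GC bins (1.07 and 1.10). Against intragenic regions they were 1.19 and 1.39 within GC bins. RUNX did not pass in either comparison, with an odds ratio of 1.02 (0.953 to 1.10) against remote and 1.06 (1.01 to 1.11) against intragenic regions.

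The short gaps between Runx3-free regions had a sequence content of their own. There were 1395 gaps of 200 bp to under 1 kb between neighbouring Runx3-free regions, with a median of 453 bp. A region with such a gap on both sides was counted once for each gap. Gaps and the regions beside them were tested as if independent. The 200 bp in the middle of a gap held a GC box in 7.46%, against 3.48% of the midpoints of the regions on either side (odds ratio 2.24, 1.68 to 2.97, exact adjusted p = 7.45e-07). KLF/SP was found in 23.4% against 18.0% (1.39, exact adjusted p = 0.000363). ETS was lower in gaps, at 44.2% against 52.0% (0.731, exact adjusted p = 1.96e-05), and so were RUNX (28.5% against 32.6%, 0.822, exact adjusted p = 0.0233) and CAGCTG (8.39% against 11.9%, 0.680). Windows rich in CpG, with a ratio of at least 0.60 and at least 50% GC, made up 88 gaps (6.31%) and 42 midpoints (1.51%), an odds ratio of 4.41 (3.03 to 6.40, Fisher's exact p = 5.01e-16). Within GC bins the odds ratio for RUNX was 0.869 (0.753 to 1.00), which reaches 1. ETS cores thus lay more in the called regions, and GC boxes more in the gaps between them. The lists hold no heights, so whether the mark dips in these gaps was not tested.

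A gap with many GC boxes, 464 bp at chr9:55785644-55786107, is shown as an example, with GGGCGG in capitals. It lay between regions of 1496 and 1781 bp upstream of Scaper, 17.5 kb from the nearest TSS, and its central window held 6 GC boxes and 26 CpG at a GC content of 76.0%.
Scaper gap, chr9:55785776-55785975: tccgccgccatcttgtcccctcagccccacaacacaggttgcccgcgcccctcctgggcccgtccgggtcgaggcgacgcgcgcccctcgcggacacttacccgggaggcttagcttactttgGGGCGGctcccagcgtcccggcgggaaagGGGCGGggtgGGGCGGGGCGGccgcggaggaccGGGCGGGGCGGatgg

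Reads were kept only where they aligned uniquely, and repeated sequence was scarce in the regions, a difference whose cause was not tested. Windows in which at least 50% of 24-mers occur 10 or more times in the genome made up 0.557% of Runx3-free midpoints (68 regions), 7.86% of flanks, 1.90% of Runx3-bound regions and 11.2% of gaps. Leaving them out gave an odds ratio against flanks of 1.34 for RUNX and 1.45 for ETS. In the gaps, the odds ratio was then 2.49 for the GC box (exact adjusted p = 2.55e-08) and 0.752 for ETS (exact adjusted p = 0.000563), while RUNX (0.832, exact adjusted p = 0.0860) and CAGCTG (0.764, exact adjusted p = 0.0870) no longer passed. CTCF, found in 2.29% of gaps against 1.15% of midpoints (2.02, exact adjusted p = 0.0233), went to 1.29 (exact adjusted p = 0.646) and did not pass either.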

How the data were processed

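Per the labels, ChIP-seq was carried out on chromatin of about 300 bp fragments with reads of 40 to 42 bp. The authors joined the repeats of each antibody, aligned reads to mm9 with ELAND, kept unique alignments and called regions with MACS against joined NIS after scaling the larger set down. The submitters' processing notes name CASAVA 1.6 and 1.7. The deposited values are start and end positions in base pairs, which carry no other measurement. They hold no reads per region, so precision comes from the number of regions alone.

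Starts were shifted by 1 bp to browser positions, regions overlapped when they shared at least 1 bp, and distances ran from midpoints. Densities have exact Poisson intervals and shares Wilson intervals. Fisher's exact test (two-sided) was applied to the shares of windows with a motif or 6-mer, with p-values adjusted after Benjamini and Hochberg and called under 0.05. Alternatives compared them within bins of GC or width by the Mantel-Haenszel test. The tests were tried on simulated data. Symbols of list genes were matched through RefSeq synonyms as well.

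Members, lists and tests were chosen with earlier results of these data known. Text names the 10 genes with most regions, up to 4 per list, the 10 widest regions, those next to each limit, all motifs, and the 10 highest and 5 lowest 6-mers. Some named items are not reported here. Gaps, repeated and CpG-rich windows, groups by Runx3 distance, profiles, the Runx3 midpoint, the remote and intragenic comparisons and the printed sequences were added after seeing the data. Python 3.11.15, numpy 2.4.6, scipy 1.17.1, statsmodels 0.14.6, numba 0.67.0 and matplotlib 3.10.9 were used.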

Additional observations from a re-analysis of the deposited data

How the results depend on the processing

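No paired analysis was possible because repeats had been joined before regions were called, and for the same reason no replicate could be left out. The cause of a change was not tested unless stated. The number of Runx3-free intergenic regions ran from 8514 (neighbours within 1 kb merged first) to 12260 (none left out for width), against 12218. Density was 20.1 per Mb on autosomes only and 24.3 with protein-coding TSSs, against 18.4. The ratio of density near to far was 1.48 with protein-coding TSSs, against 1.78. The upstream share was 55% by the nearest edge, against 66.5%. Genes with a region within 50 kb of any of their TSSs numbered 7532, against 4531, since 1 region can then count for several genes.

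The odds ratio against flanks stayed between 1.24 and 1.39 for RUNX and between 1.44 and 1.77 for ETS, and was past the threshold each time. Against Runx3-bound regions of the same position, the RUNX odds ratio of 0.817 by Fisher's exact test became 0.774 within GC bins (Mantel-Haenszel adjusted p = 0.0104), 0.80 within width bins (Mantel-Haenszel adjusted p = 0.0356), 0.160 over whole regions, whose widths differ by construction, and 0.170 at Runx3 midpoints, where windows were placed by Runx3 itself. It was 0.818 (exact adjusted p = 0.0721) without repeated windows. In every setting the groups were set apart by Runx3, so the RUNX difference is tied to the choice of regions. The 809 6-mers above flanks were 875 against flanks without H3K4me1, 742 without repeated windows and 65 at 1.5-fold odds. Heights and counts per region were not analysed here, so strength of the mark limits every comparison.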
